A study of Mus musculus with 6 samples.

Results

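Glutathione S-transferases join glutathione to reactive, electron-poor compounds, and the 28 mouse genes described here are those whose symbol in the gene table of B16F10 cells is Gst followed by lower-case letters and an optional number, Gstcd included, or Mgst1, Mgst2 or Mgst3. The pattern was applied to the 27179 genes of the table, and the family itself was picked with earlier results of these data known. Pseudogenes were left out by the same pattern. Of the 28 genes, 20 had an average of at least 1 CPM (reads per gene in a library scaled to 1000000 reads), an average log2 CPM of 0 or more, and are called expressed below. The other 8 lay under that level, and each of them still had at least 1 read.

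B16F10 is an established mouse melanoma cell line, labelled as skin, melanoma and wild type. Its cells were cultured for 6 h with 0.01% ozonated olive oil (OZO, 3 samples) or with 0.01% olive oil (OLO, 3 samples), so the untreated carrier oil is the control. RNA of each culture was sequenced, and the level used here is the authors' average log2 CPM over all 6 libraries, OZO and OLO together. It has no error and no group of its own, so the values describe which members the cells expressed, and no difference between OZO and OLO is given. The depth of each library is unknown. The geometric mean of the library sizes, read back from the level of the 6025 genes without a read, was 19641946 reads, and 1 CPM stood for 19.6 reads per library. Melanocyte markers were all expressed, 7 of 7, from an average log2 CPM of 6.76 for Sox10 to 12.78 for Dct. Keratinocyte markers were at or next to the level without reads, 0 of 4 expressed, and Krt5 had no read. Hepatocyte markers, of a tissue rich in these enzymes, were 0 of 4 expressed, from -2.62 for Cyp2e1 to -0.52 for Ttr. Fibroblast markers were 2 of 4 expressed, endothelial markers 1 of 3, and macrophage markers 1 of 4, with the highest of these, Cd68, at 2.45.

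Most glutathione S-transferases are soluble enzymes sorted by sequence into classes, here alpha, mu, pi, theta, omega, zeta and kappa, while the 3 Mgst genes encode membrane proteins of another fold. Classes differ in substrates. Alpha, mu and pi enzymes detoxify drugs and products of lipid oxidation, omega enzymes reduce disulfides and dehydroascorbate, the zeta enzyme works in tyrosine breakdown, and the kappa enzyme lies in mitochondria and peroxisomes. In many tissues several of the genes respond to NRF2, a transcription factor that binds the antioxidant response element of their promoters.

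The sequences of Gstp1, the highest member, and of its neighbour Gstp2, which was under 1 CPM, are shown first because they are nearly the same. Gstp1 lies at chr19:4035407-4037985 and Gstp2 at chr19:4040285-4046023, both on the minus strand of mm10 and 2.3 kb apart. Their coding sequences, 630 bases each, differed at 12 positions, 6 of them within the first 120 bases. The lines below give those 120 bases from the start codon, from the GENCODE M21 annotation, with the differing bases in capitals.
Gstp1: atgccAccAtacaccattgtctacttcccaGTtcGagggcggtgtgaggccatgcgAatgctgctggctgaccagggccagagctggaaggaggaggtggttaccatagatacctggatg
Gstp2: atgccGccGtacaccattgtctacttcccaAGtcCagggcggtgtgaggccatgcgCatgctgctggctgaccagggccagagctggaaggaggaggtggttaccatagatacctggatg
The stretches upstream of their RefSeq starts, from the RefSeq promoters of GRCm38.p6, also look alike. These starts, at base 4037912 for Gstp1 and 4042221 for Gstp2, lie 73 and 3802 bases inside the GENCODE gene bounds given above, on the side where transcription begins. Both hold TGAGTCAGC, which fits the looser of 2 antioxidant response motifs searched (TGANNNNGC) and not the stricter (TGACNNNGC), 74 bases before the RefSeq start of Gstp1 and 89 bases before that of Gstp2. The stretch of Gstp1 includes 8 bases annotated as exon in GENCODE, all within the match, and that of Gstp2 includes 0. The lines below end with that match in capitals, at chr19:4037978-4038058 and chr19:4042302-4042382 on the minus strand.
Gstp1 promoter: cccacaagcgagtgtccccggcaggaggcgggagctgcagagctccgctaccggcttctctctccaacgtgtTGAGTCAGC
Gstp2 promoter: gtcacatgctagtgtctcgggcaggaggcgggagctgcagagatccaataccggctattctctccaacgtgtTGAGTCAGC

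Of the 28 members 71.4% were expressed, beside 43.7% of all genes of the table, and the expressed members lay mostly below the middle of expressed genes. The table also holds pseudogenes, which the family leaves out, and genes without a symbol, so the sets are unlike. Among genes with a symbol the share was 45.4%. The median average log2 CPM was 1.42 over the 28 members and -1.49 over all genes. Among expressed genes alone, the 20 members had a median of 3.26, under the 4.98 of all 11878 expressed genes. These are descriptions with no test, since the members share sequence and position. The members summed to 623 CPM. Of the 20 expressed members, 10 were at 16 CPM or more and 10 lay between 1 and 16 CPM. Because RNA of whole cultures was measured, a low level in every cell and a higher level in a few cells cannot be told apart.

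**Figure D1:**
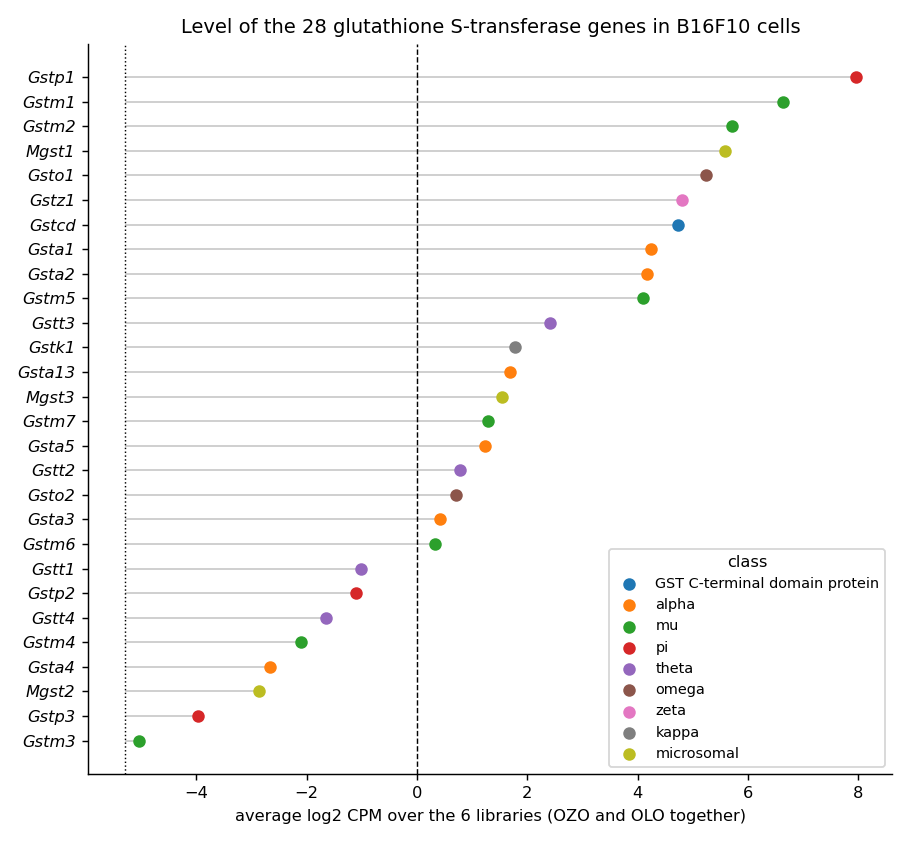
Average log2 CPM over the 6 libraries (x axis) of the 28 members (y axis, ordered by level), coloured by class. The dashed line marks the level from which a gene was called expressed and the dotted line that of genes without reads. Gstp1 stands highest at 7.96, and the 8 members left of the dashed line run down to Gstm3 at -5.03.

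Gstp1, the pi class enzyme that conjugates many electrophiles, had an average log2 CPM of 7.96, or 249 CPM, above 96.5% of all genes with a read. To compare genes, each CPM was divided by the length of the gene's longest annotated transcript. Where the summed exon length of the gene in place of that transcript moved a level by over 1.5 times, its value over that length is given too. Over its longest transcript Gstp1 had 303 CPM per kb (161 over the summed exon length), 50.6% of the summed level per kb of the whole family, and lay above 99.4% of the genes with a read and an annotated length. It was 3.92 times the next member, Gstm1, per kb, and 2.38 times when the summed exon length was used in place of the longest transcript. Gstp2 had an average log2 CPM of -1.11, at least 54 reads in all over the 6 libraries, and per kb the level of Gstp1 was 521 times its own. Gstp3, farther along the same cluster, had -3.98, at least 5 reads in all, and at least 1 of the 6 libraries had none. Among the 3 pi genes, 1 was thus expressed.

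The mu class held the next highest levels, with 5 of 7 genes expressed and 24.3% of the family's summed CPM per kb. Gstm1 had an average log2 CPM of 6.64 (99.7 CPM, 77.3 per kb) and Gstm2 had 5.72 (52.6 CPM, 49.5 per kb, 31.3 over the summed exon length). Per kb Gstm1 was 1.56 times Gstm2. Gstm5 followed at 4.10, or 15.8 CPM per kb. Gstm7 at 1.30 and Gstm6 at 0.33 were near the lower limit, with 1.78 and 1.07 CPM per kb, the latter 0.634 over the summed exon length. Gstm4, at -2.09, had at least 36 reads in all, yet in at most 5 of the 6 libraries. Gstm3, at -5.03, rested on exactly 1 read in 1 library. The mu genes thus ran over nearly the whole range of the family.

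The alpha class, known from liver and for its peroxidase activity towards lipid hydroperoxides, had 5 of 6 genes expressed and 8.18% of the summed CPM per kb. Gsta1 and Gsta2 were close to each other, at an average log2 CPM of 4.24 and 4.17 and at 21.6 and 20.7 CPM per kb. Gsta13 had 1.70 (3.71 per kb), Gsta5 had 1.23 (2.36 per kb) and Gsta3 had 0.43 (0.481 per kb, 0.309 over the summed exon length and 0.921 over its longest protein-coding transcript). Gsta4, whose enzyme is known for conjugating the lipid peroxidation product 4-hydroxynonenal, was the alpha gene under the limit. It had an average log2 CPM of -2.66 and at least 19 reads in all. No spread between libraries can be given for any of these levels, so it cannot be said which neighbours in the order differ beyond it.

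Among the membrane enzymes, Mgst1, a glutathione transferase and peroxidase of the endoplasmic reticulum and outer mitochondrial membrane, had an average log2 CPM of 5.59 and 41.3 CPM per kb, or 23.96 over the summed exon length. Mgst3 had 1.54, or 2.65 per kb, so that per kb Mgst1 was 15.6 times Mgst3, or 9.03 times over the summed exon length. Mgst2, which like Mgst3 can make leukotriene C4, lay at -2.87 with at least 15 reads in all. One gene therefore supplied most of the class, which held 7.35% of the family's summed level per kb.

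Both omega genes were expressed, though far apart. Gsto1, a thioltransferase and dehydroascorbate reductase, had an average log2 CPM of 5.24 (31.9 CPM per kb, 18.7 over the summed exon length), and Gsto2, an enzyme of the same kind, had 0.71 (1.21 per kb, 0.694 over the summed exon length). Per kb Gsto1 was 26.4 times Gsto2. Gstz1, the maleylacetoacetate isomerase of tyrosine breakdown, had 4.80, or 9.18 CPM per kb, and 16.8 over its longest protein-coding transcript or 5.48 over the summed exon length. Gstcd, which encodes a protein with the C-terminal domain of the family, had 4.73, or 7.57 CPM per kb, and 4.91 over the summed exon length. Both were longer transcripts, and per kb they fell behind Gsta1, Gsta2 and Gstm5, which had lower CPM. Gstk1, the kappa enzyme, had 1.78, or 2.46 CPM per kb, and 3.69 over its longest protein-coding transcript.

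The theta class, which acts on small halogenated compounds, was low throughout and held 0.708% of the summed level per kb. Gstt3 had an average log2 CPM of 2.42 (2.70 CPM per kb, 1.39 over the summed exon length) and Gstt2 had 0.78 (0.761 per kb, 0.413 over the summed exon length). Gstt1, at -1.02 with at least 64 reads in all, and Gstt4, at -1.64 with at least 38, were under the limit. Gstt1 was the highest of the 8 members not called expressed, and Gstm6 at 0.33 was the lowest of the 20 called so.

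**Figure D2:**
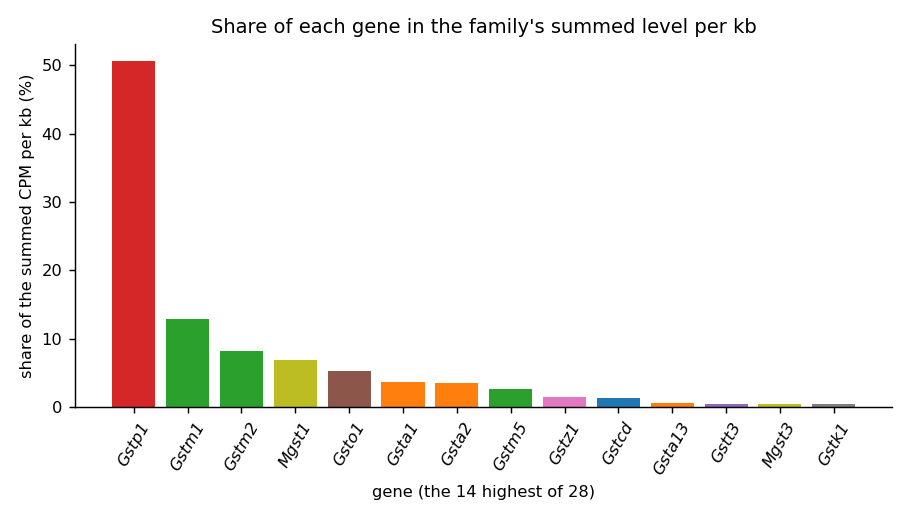
Share of the family's summed CPM per kb (y axis, percent) for the 14 highest members (x axis), coloured by class as in the plot of levels. Gstp1 alone held 50.6%, and the first 4 bars together 78.7%.

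Most members lie beside relatives on the chromosome, 21 of 28 in 5 clusters. In the mu cluster on chromosome 3, which spans 149 kb, Gstm3 with its single read lay 12.4 kb from Gstm2, and Gstm1 was followed at 22.4 kb by Gstm4. In the alpha cluster on chromosome 9, over 173 kb, the higher genes Gsta1 and Gsta2 enclosed the lower Gsta13 and Gsta5, and Gsta4 stood at one end. In the theta cluster on chromosome 10, over 63.3 kb, the expressed Gstt3 and Gstt2 were the outer genes. The pi cluster on chromosome 19, over 24.2 kb, fell from Gstp1 through Gstp2 to Gstp3. Gsto1 and Gsto2, also on chromosome 19, are 0.744 kb apart.

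**Figure D3:**
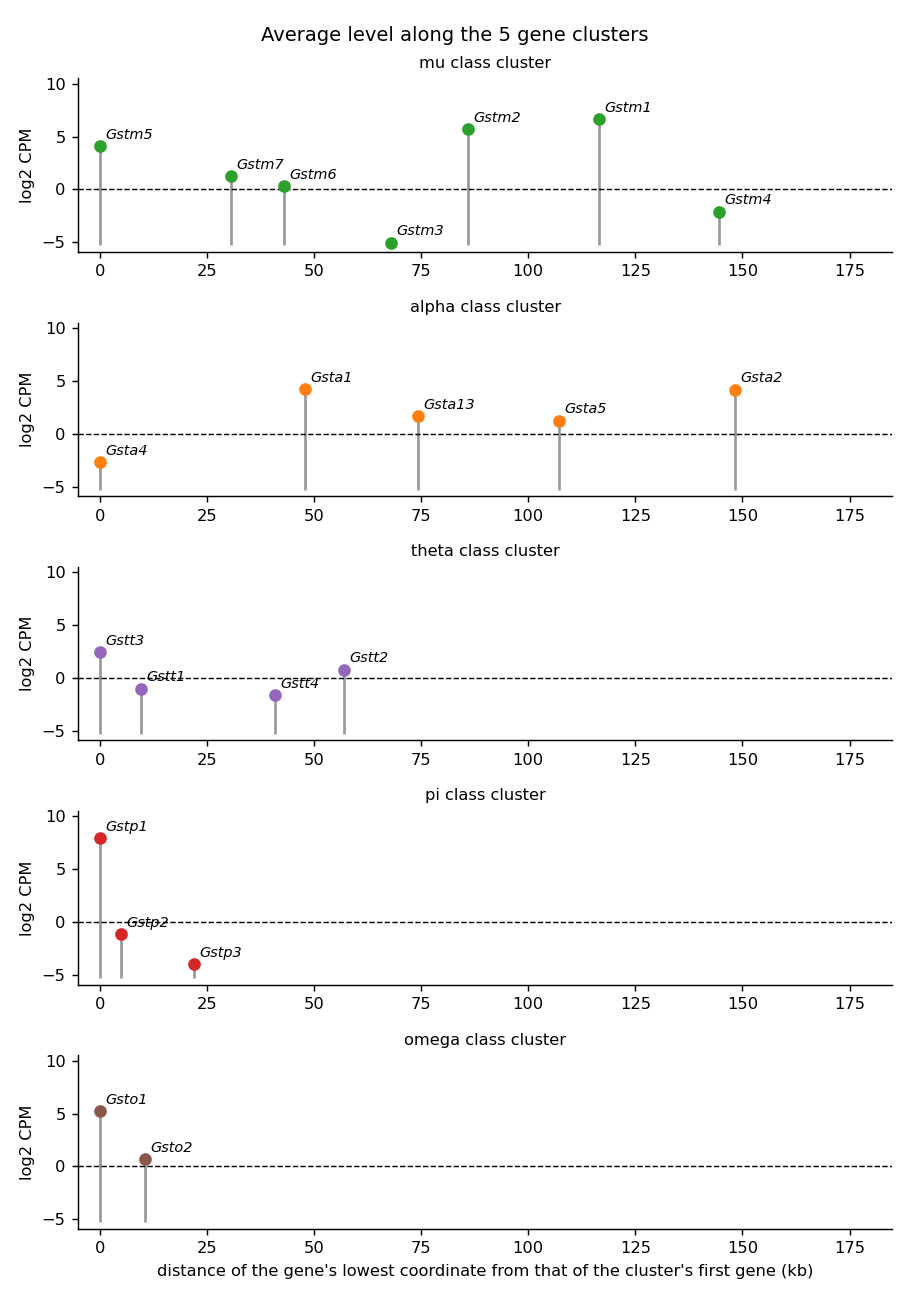
Average log2 CPM (y axis) of the members of each of the 5 clusters against the distance from the cluster's first gene (x axis, kb). Dots are genes, and the dashed line marks the level of expressed genes. Some neighbours lie far apart in level, as Gstp1 at 7.96 and Gstp2 at -1.11, or Gstm3 at -5.03 and Gstm2 at 5.72, and others close, as Gsta13 at 1.70 and Gsta5 at 1.23, or Gstm2 and Gstm1 at 6.64.

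The levels of near-identical members depend on how reads that fit several genes were counted, which the sources used here do not state. Windows of 150 bases, the length of 1 read, were taken along the transcript with the longest coding sequence and sought in the transcripts of every other gene. For Gsta13, 77.7% of them occurred in another gene, and for Gsta1 73.7%. The main partner of each was the other one. Of 669 coding bases, 2 differed between Gsta1 and Gsta13. Coding bases 5 to 124 hold 1 of these, shown in capitals.
Gsta1: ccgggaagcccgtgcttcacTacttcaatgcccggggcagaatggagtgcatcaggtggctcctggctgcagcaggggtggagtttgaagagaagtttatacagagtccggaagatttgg
Gsta13: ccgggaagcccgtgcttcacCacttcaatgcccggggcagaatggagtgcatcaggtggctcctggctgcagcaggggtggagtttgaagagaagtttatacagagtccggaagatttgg
Gsta2 shared 26.8% and Gsta5 18.96% of their windows. The division of the 42.5 CPM of these 4 genes among them is therefore uncertain.

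For Gstp1, 41.8% of the windows were shared with Gstp2, and some of these also with the pseudogene Gstp-ps, at an average log2 CPM of 3.99, or 15.9 CPM. For Gstp2, 49.4% of the windows were shared. Reads of Gstp1 placed on Gstp2, or the reverse, cannot be told apart from these windows alone. The reads came in pairs, and whether the mate lay outside the shared windows was not examined. The level of Gstp2 given above is thus uncertain, and so to a lesser degree is that of Gstp1. Gstt3 shared 21.7% with Gm20441, an annotated gene on the same strand that overlaps 13.6% of its exon bases. Gstm5 shared 3.64% with the antisense gene 4933431E20Rik, and Gstm3 shared 3.44% with Gm8834. Of the exon bases of Gstz1, 9.14% lie opposite Pomt2, and of those of Gstcd, 1.85% lie opposite Ints12. The kit keeps the strand, but whether counting used it is not stated. The other members, Gstm1, Gstm2, Mgst1 and Gsto1 included, shared no window of 150 bases. With windows of 50 bases, Gstm1 shared 33.0% and Gstm2 9.36%.

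**Figure D4:**
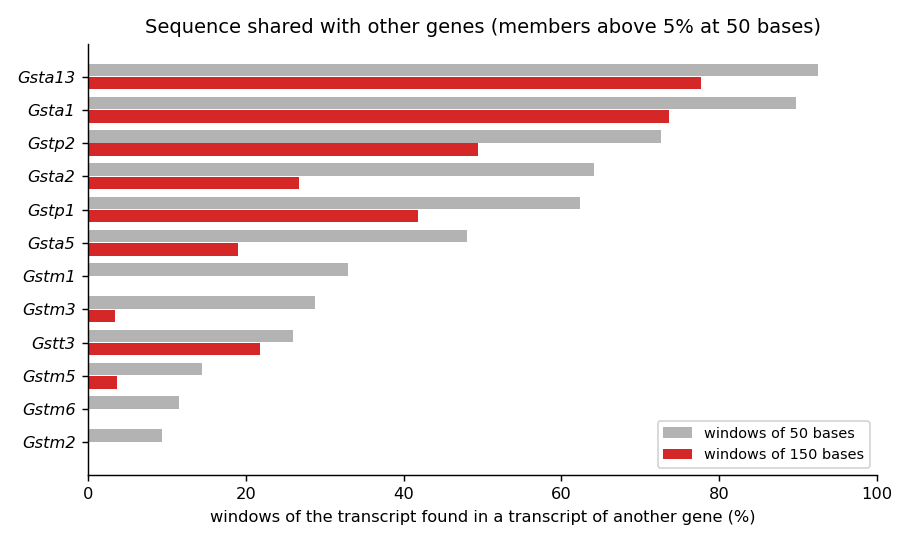
Share of transcript windows (x axis, percent) that also occur in a transcript of another gene, for members above 5% at 50 bases (y axis). Grey bars are windows of 50 bases and red bars windows of 150 bases. Gsta13 and Gsta1 lead with 77.7% and 73.7% at 150 bases, while Gstm1, Gstm2 and Gstm6 have no red bar.

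Near-identical coding sequences, at 97% or more, were found in 6 of 15 alpha pairs, those among Gsta1, Gsta2, Gsta5 and Gsta13, in 1 of 3 pi pairs and in 0 of 21 mu pairs. The median over pairs was 75.4% in the alpha class, 77.6% in the mu class and 62.3% in the theta class. The 3 microsomal genes had a median of 42.3%. Gstp3 stands apart in the pi class, whose median was 73.3% against 98.1% for Gstp1 and Gstp2.

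Promoters were read for the 26 members with a RefSeq entry, in windows from 250 bases before to 50 bases after each annotated start. Gsta4 and Gstt2 were not matched. The stricter antioxidant response motif, TGACNNNGC on either strand, lay in at least 1 window of 4 of 19 expressed members and of 0 of 7 members below the limit. It occurred in 13.99% of all 27025 RefSeq genes with a promoter, in the table or not, and in 17.0% of the 9373 expressed genes of the table with one. The 4 genes were Gsta3, Gstm5, Gstm7 and Mgst1, and the matches are shown in capitals because they span members from 0.43 to 5.59 on the average log2 CPM scale. The Mgst1 match is on the opposite strand. The printed bases of Gstm7 and of Mgst1, 29 of 29 in each, are annotated as exon in GENCODE, whose gene bounds begin 203 and 211 bases before the RefSeq starts used, while those of Gsta3 and Gstm5 include 0 exon bases. The stretches lie, in order, at chr1:21240392-21240472 on the plus strand, chr3:107895740-107895820 on the plus strand, chr3:107931725-107931753 on the minus strand and chr6:138140461-138140489 on the plus strand.
Gsta3: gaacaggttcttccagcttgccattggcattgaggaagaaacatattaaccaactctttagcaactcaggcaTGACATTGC
Gstm5: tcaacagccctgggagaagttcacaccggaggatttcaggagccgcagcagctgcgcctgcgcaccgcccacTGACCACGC
Gstm7: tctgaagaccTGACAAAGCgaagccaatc
Mgst1: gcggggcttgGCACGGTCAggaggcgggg
The looser motif, TGANNNNGC, which includes every match of the stricter, lay in 11 of 19 expressed and 6 of 7 other members, beside 45.0% of all RefSeq genes and 48.1% of expressed ones. TATAAA, a core promoter motif, lay in 4 of 19 and 1 of 7, beside 15.7% of all RefSeq genes and 8.34% of expressed ones. These are matches of letters and not binding sites.

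CpG content was also read from these windows. The ratio of observed to expected CpG, the highest over a gene's windows, was 0.6 or more in 7 of 19 expressed members and 0 of 7 others, beside 79.6% of 9373 expressed genes and 38.4% of all RefSeq genes with a promoter. Its median was 0.568 over the 19 expressed members, 0.232 over the 7 others and 0.806 over all expressed genes and 0.415 over all RefSeq genes. Expressed members thus lay under expressed genes in both measures and near or above all RefSeq genes, with no test. Among members with an average log2 CPM above 4, the ratio was 0.682 for Gstp1, 0.161 for Gstm2, 0.104 for Gsta1 and 1.004 for Gstcd.

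Glutathione itself is made, reduced, exported and broken down by other genes, given here beside the 43.7% of all genes that were expressed. The share was 87.5% for disulfide reduction and glutaredoxins, and 37.5% for the peroxidases, under that of all genes. All 3 synthesis genes were expressed. Gclc, the catalytic subunit of the first and limiting step, had 57.4 CPM per kb, its partner Gclm 11.2 and Gss 11.0. Of the genes for disulfide reduction and glutaredoxins, 7 of 8 were expressed. Txnrd1, thioredoxin reductase, led with 162 CPM per kb before Glrx3 with 71.0, and Gsr, glutathione reductase, had 33.1. The lowest were Glrx2 with 4.31 and Glrx with 1.07, and Glrx5 was below the limit. Of the peroxidases, 3 of 8 were expressed, namely Gpx4, which reduces lipid hydroperoxides in membranes, with 123 CPM per kb, Gpx1 with 75.5 and Gpx8 with 60.5. Gpx2, Gpx3, Gpx6 and Gpx7 were below and Gpx5 had no read. Per kb of the longest transcript, Gstp1 with 303 lay above every gene of these lists. Over the summed exon length Gstp1 had 161, and the genes of the lists were not scaled by that length. In CPM, not scaled by length, Txnrd1 with 586 lay above Gstp1 with 249.

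The steps after conjugation were uneven. The share expressed was 83.3% of the exporters, 60% of the breakdown list and 55.6% of the mercapturate list, beside 43.7% of all genes. Of the ABC transporters that export conjugates, 5 of 6 were expressed, led by Abcc5 with 20.005 CPM per kb and Abcc1 with 11.18. Abcg2 with 6.18 and Abcc2 with 0.212 were the lowest of the 5, and Abcc3 was below the limit. Of the genes for glutathione breakdown, 9 of 15 were expressed, from the peptidases Lap3 with 37.0 and Cndp2 with 22.5 CPM per kb to Oplah with 0.815 and Ggt1 with 0.729. Ggt5, Ggt6, Dpep1, Dpep2, Dpep3 and Anpep were below. The mercapturate list joins the Nat8 genes with Acy1 and Acy3, for acylases that remove the acetyl group, and Kyat1 and Kyat3, for beta-lyases that split conjugates. Of the Nat8 genes, Nat8 encodes the N-acetyltransferase that finishes conjugates for excretion, and the Nat8f genes are its relatives. In this list 5 of 9 genes were expressed, of the Nat8 genes only Nat8f1. The highest were Acy1 with 3.07 and Nat8f1 with 2.93 CPM per kb, and the lowest Kyat1 with 2.86 and Kyat3 with 2.85. Nat8, Nat8f2, Nat8f3 and Nat8f5 were below. The glyoxalase list was expressed in 3 of 3 genes. Hagh with 12.9 and Glo1 with 12.01 CPM per kb encode the enzymes that clear methylglyoxal with glutathione, and Lactb2 with 20.5 encodes a mitochondrial endoribonuclease with the fold of the Hagh enzyme. Hagha was not analysed here.

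NRF2 and its partners were all expressed, 8 of 8, beside 43.7% of all genes. Cul3, of the ligase that degrades NRF2, had 65.7 CPM per kb, and Nfe2l2, which encodes NRF2, had 60.4. Keap1, the adaptor of that ligase, with 6.22 and Maff with 4.16 were the lowest. The median average log2 CPM of this list was 6.41, against 1.42 for the glutathione S-transferases.

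**Figure D5:**
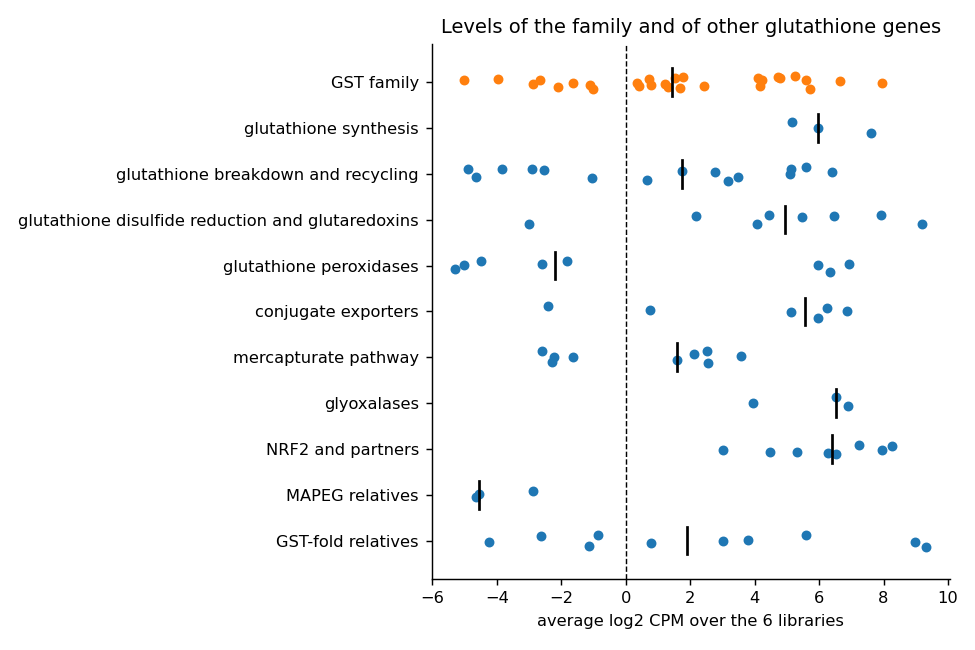
Average log2 CPM over the 6 libraries (x axis) of the 28 members (orange) and of the genes of each other list (blue). Each dot is a gene, shifted at random up or down for visibility, the black bar is the list's median, and the dashed line marks the level of expressed genes. The median was 1.42 for the family, 5.97 for synthesis, 6.41 for NRF2 and partners and -2.21 for the peroxidases.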

How the data were processed

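RNA of B16F10 cells treated for 6 h with OZO or OLO (3 samples each) was sequenced as pairs of 150 bases. According to the methods and the submitters' processing notes, the authors aligned reads to mm10 with HISAT2 (2.1.0), used StringTie (1.3.4d), and took featureCounts (2.1.1) and limma-voom (3.58.1) to the comparison. Strand use, reads that fit several genes, and the annotation for counting are not given in the sources used here. The authors deposited 1 table with log2 average expression (log2 CPM over all 6 libraries) for 27179 genes. It also holds the authors' comparison of OZO with OLO (log2 fold changes, moderated statistics, unadjusted and adjusted p-values and log odds), which was not used here. No value of a single library was analysed, so n, SD and tests are not given, and the test planned for OZO against OLO was not run.

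From the averages, CPM was computed, and divided by the longest transcript of GENCODE M21 (GRCm38), to which all 28 members matched. Genes without reads share the lowest average, -5.30. With the 0.5 reads that voom adds, this gives the library size, and the product over libraries of doubled reads plus 1, whose value was whole within 0.001 for 5161 of 5161 low genes. From it came the least number of reads of the members below 1 CPM. Of these members, the low genes checked, close to the lowest average, included only Gstp3 and Gstm3. For the others the product was rounded to a whole number, and how near it lay to one was not checked. Percentiles are among the 21154 genes with a read. On simulated counts for 27179 genes, the library size was recovered to 100%, as were the products of 100% of the 5069 low genes. The bounds on reads held for 100% of 200 of these, but were computed from the simulated counts themselves. Genes without reads were also simulated without reads, so these outcomes follow from the arithmetic. They check the code and not the reads of the members. Read sharing, motifs, clusters (gaps up to 1000 kb) and identity were computed with Python 3.11.15, numpy 2.4.6, pandas 2.3.3 and biopython 1.88. Promoters are RefSeq's (GRCm38.p6), matched by gene ID for 26 members.

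All members with their levels were named. For other lists, those named were the 2 highest and 2 lowest expressed genes per kb, and those below by name. Gsr, for glutathione reductase, was named in addition. One gene of these lists is not reported here. Members and lists were chosen with earlier results of these data known.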

Additional observations from a re-analysis of the deposited data

How the results depend on the processing

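No paired analysis was possible because each value is 1 average of the 6 libraries, and leaving out a replicate, a replicate block, another normalization and a count filter were not run for the same reason. With no spread between libraries, a value was called moved if it changed by over 1.5 times. The number of expressed members was 16 from 2 CPM, 20 from 0.5 CPM and 28 from 1 read, beside 20. The share of all genes expressed rose to 77.8% when 1 read was enough, where 28 of 28 members counted, and stayed between 40.2% and 47.8% at the other limits and among genes with a symbol. The looser motif was found in 11 expressed members against 4. The share of Gstp1 was 39.9% in CPM, 42.5% over the summed exon length and 49.6% over the longest protein-coding transcript, against 50.6%, and Gstp1 was the highest in all of them. The median level per kb of the 20 expressed members was 4.31 over the summed exon length and 5.62 with the offset subtracted, against 5.64. Single levels per kb moved by over 1.5 times in 11 of 20 members over the summed exon length, Gstp1 to 161 included, in 3 of 20 (Gstz1, Gstk1 and Gsta3) over the longest protein-coding transcript, and in 0 of 20 with the offset subtracted. Of the 20 expressed members, 9 changed rank over the summed exon length, where the first 4 ranks were kept, and 5 over the longest protein-coding transcript. The use of the longest protein-coding transcript, and both lengths for the share of Gstp1, were chosen after seeing the data. Averages over both oils hide any difference between them, and members under 1 CPM rest on few reads.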

Other observations

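Of 10 genes for proteins that share the fold of the glutathione S-transferases, 6 were expressed (60%), beside 43.7% of all genes. Of these 6, 1, Eef1g, lay above Gstp1 per kb of the longest transcript. Eef1g, a subunit of the translation elongation factor 1 complex, had 346 CPM per kb and Clic4, a chloride intracellular channel protein, had 121, beside 303 for Gstp1. In CPM, not scaled by length, Clic4 had 498 and Gstp1 249. Hpgds, the sigma class enzyme that makes prostaglandin D2, had 2.101 and Clic3 had 1.88. Gdap1, Gdap1l1, Clic5 and Clic6 were below 1 CPM. The relatives of the Mgst genes that serve the making of leukotrienes and prostaglandin E2, Alox5ap, Ltc4s and Ptges, were expressed in 0 of 3 cases. They lay between -4.64 and -2.88 on the average log2 CPM scale. Of the same membrane protein family, Mgst1 had 5.59, Mgst3 1.54 and Mgst2 -2.87.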
